A study of Mus musculus with 24 samples.

Results

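The change from telogen to neonatal skin was compared between sorted dermal fibroblasts and sorted epidermal keratinocytes, to find the genes that changed in 1 compartment and not in the other or changed in opposite directions. The measure was a difference of differences, called the interaction here: neonatal minus telogen dermis, less neonatal minus telogen epidermis, in log2 units of array signal. It used 12 of the 24 arrays of the series, all those of wild-type skin, with 3 arrays in each of 4 groups: GFP+ fibroblasts of neonatal dermis, GFP+ fibroblasts of telogen dermis, ItgA6+ keratinocytes of neonatal epidermis and ItgA6+ keratinocytes of telogen epidermis. All the mice were wild type on a C57BL/6 CBA mixed background, the cells came from back skin by flow cytometry, and the RNA was amplified before hybridisation. The labels number the mouse behind each array. Neonatal dermis came from mice 1, 2 and 3, neonatal epidermis from mice 2, 3 and 4, and both telogen sorts from mice 2, 3 and 4. Equal numbers in different states were taken as different animals. The ages of the mice and the promoter behind the GFP are not given in the sources used here. The other 12 arrays, of D2 skin with transient or sustained activation of beta-catenin, entered only the estimate of spread and 1 description of how the genes divide between dermis and epidermis. Of 45037 probe sets tested, 2555 were called for the interaction, and among 4560 genes with a name 1116 were called.

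Skin is built by an epithelium and a mesenchyme that signal to each other. In neonatal back skin the first hair follicles are still growing, keratinocytes divide, and fibroblasts divide and lay down matrix, whereas in telogen the follicle rests beside its stem cell niche, the bulge, and adult fibroblasts are mostly quiescent. Many of the signals involved (ephrins, semaphorins, fibroblast growth factors, Wnt antagonists) can be made on either side of the basement membrane, so the compartment in which such a gene changes is as informative as the change.

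Values are log2 signals, and where a second compartment is given with no states its values keep the order of the first. Differences are neonatal minus telogen unless said otherwise, the value after ± is the standard error from limma, and adjusted p-values are Benjamini-Hochberg values from limma over 45037 probe sets, with a gene called under 0.05. Medians of the 12 arrays lay between 4.34 and 4.94 and their 5th percentiles between -0.96 and 0.38, so a mean near or below 3 is a weak signal and the size of its difference is imprecise. Markers of each labelled cell type were strongest in the matching sorts. The summed signal of 4 of 10 listed keratinocyte markers was 9690 to 12600 over the epidermal arrays and 426 to 806 over the dermal arrays. Krt5, a keratin of basal keratinocytes, averaged 12.17 and 11.72 in neonatal and telogen epidermis and 8.21 and 7.54 in dermis, and Lum, the fibroblast proteoglycan lumican, 4.58 and 5.09 in epidermis and 11.35 and 11.73 in dermis. Both sorts also carried transcripts of other cells, for several marker lists unequally in the 2 states. The summed signal of 6 of 8 listed fibroblast markers was 6360 to 8240 in neonatal epidermal arrays and 2050 to 2740 in telogen epidermal arrays, against 19400 to 23100 over the 6 dermal arrays. That of 6 of 9 dendritic and Langerhans cell markers was 1310 to 1820 in neonatal and 4730 to 5320 in telogen epidermis. That of 11 of 16 macrophage markers was 166 to 245 in neonatal dermis, 1170 to 1300 in telogen dermis, 2190 to 3130 in neonatal epidermis and 2880 to 4080 in telogen epidermis. That of 7 of 8 pericyte and muscle markers was 815 to 1020, 1620 to 2250, 1620 to 2430 and 412 to 566 in the same order. Cd3e, a defining T cell gene, averaged -0.13 in neonatal dermis and 6.31 in telogen epidermis. No red cell marker had a name.

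**Figure D1:**
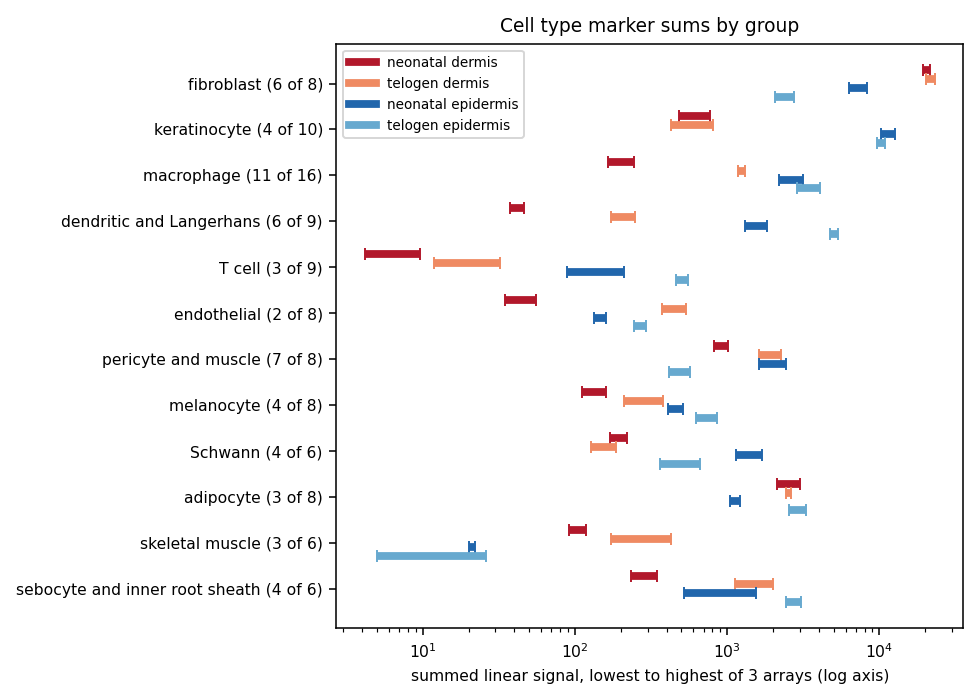
Summed linear signal of the named members of each marker list (log axis), as a bar from the lowest to the highest of the 3 arrays of each group, with named and listed members in brackets. Fibroblast sums of neonatal epidermis (6360 to 8240) lie above those of telogen epidermis (2050 to 2740), and dendritic cell sums of telogen epidermis (4730 to 5320) lie above those of neonatal epidermis (1310 to 1820).

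The compartments shared part of their change. In dermis 6929 probe sets were called (15.4% of those tested, 3950 up, or 8.77%, and 2979 down, or 6.61%) and in epidermis 4444 (9.87%, 1991 up, or 4.42%, and 2453 down, or 5.45%). In total 1771 probe sets were called in both, 25.6% of the dermal list and 39.9% of the epidermal list, of which 1565 moved the same way and 206 opposite ways. Over all probe sets the 2 changes had a correlation of 0.26, and over the named genes 0.42, given as a description over genes, which are not independent and share the arrays and their scaling. The interaction was called for 2555 probe sets (5.67%), of which 1413 were higher (3.14%) and 1142 lower (2.54%), where higher means that the dermal change lay above the epidermal change.

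The split between higher and lower depended on the scaling. It was 55.3% higher with the deposited values, 45.3% of 1938 calls after quantile normalization and 30.9% of 2379 calls with each array centred on its median, and the median interaction over all probe sets was 0.2, 0.03 and -0.2 in these settings. With the mouse as a fixed block, where dermal and epidermal arrays of the same state and mouse number were taken as 1 mouse and the interaction rested on the 5 numbers with both sorts (2 neonatal and 3 telogen), 709 were called, and 2646 with the mouse as a random block. The labels number the mice but do not state that 1 animal gave both sorts. Names come from the authors' tables of regulated genes, which were picked on these same arrays, so named genes are called more often than probe sets at large: 24.5% for the interaction (515 genes higher, 11.3%, and 601 lower, 13.2%), 54.1% in dermis and 34.4% in epidermis. By direction, 25.2% of named genes rose and 28.9% fell in dermis, and 14.9% rose and 19.5% fell in epidermis. The counts of gene lists below are to be read against these shares.

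**Figure D2:**
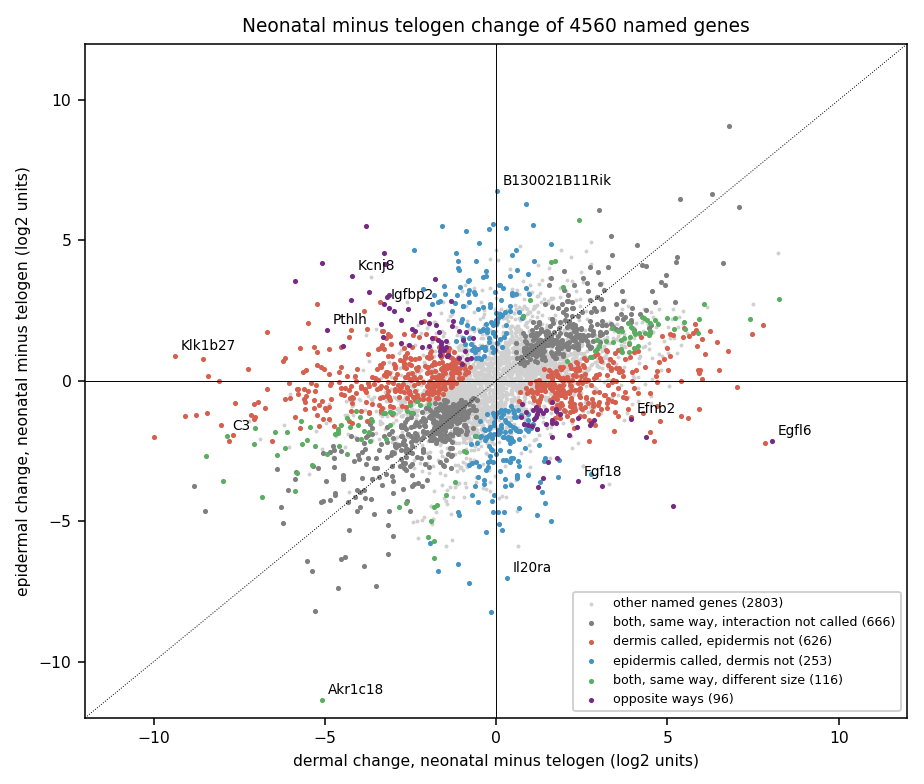
Each of the 4560 named genes by its dermal change (x axis) and epidermal change (y axis), neonatal minus telogen in log2 units, coloured by class with the number of genes in brackets; the dotted line marks equal changes. The 96 genes called in opposite directions lie to the upper left and lower right of the origin, and the 666 genes called in both compartments the same way with no call for the interaction lie along the dotted line.

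The called genes fell into classes. Opposite changes, with a call in each compartment, were found for 206 probe sets (0.457%) and 96 named genes (2.11%). Leaving out 1 array gave 129 to 207 probe sets, with over 1.5 times fewer without epidermal telogen 2 (129), epidermal neonatal 3 (131) and epidermal telogen 4 (137). Of the 96 genes 41 rose in dermis and fell in epidermis and 55 did the reverse. A call in dermis and not in epidermis, with the interaction called, was found for 1353 probe sets (3.0%) and 626 named genes (13.7%), 266 of which rose and 360 fell in dermis. For 163 of the 626 the 95% interval of the epidermal change lay within 1 log2 unit of no change, while for the others a smaller epidermal change of either sign cannot be told from none with 3 arrays per group. A call in epidermis and not in dermis was found for 678 probe sets (1.51%) and 253 named genes (5.55%), 118 of which rose and 135 fell in epidermis, with the dermal interval within 1 log2 unit for 83. Their 678 probe sets became 425 without epidermal neonatal 3, 433 without epidermal telogen 3 and 438 without epidermal telogen 2. In 116 named genes (2.54%) both compartments moved the same way by different amounts, and 25 (0.548%) were called for the interaction alone. By contrast 1395 probe sets (3.1%) and 666 named genes (14.6%) were called in both compartments the same way with no call for the interaction, and in 124 of them its interval lay within 1 log2 unit.

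The D2 arrays, which the interaction does not contrast, give the compartment in which the genes of each class were the stronger in D2 skin. Of all 4560 named genes 1141 (25.0%) were at least 1 log2 unit higher in D2 dermis than in D2 epidermis and 1201 (26.3%) at least 1 log2 unit higher in epidermis. Among the 118 genes that rose in neonatal epidermis and were not called in dermis 77 (65.3%) were higher in D2 dermis and 8 (6.78%) in D2 epidermis. Among the 55 that fell in dermis and rose in epidermis the counts were 30 (54.5%) and 5 (9.09%), and among the 360 that fell in dermis with no call in epidermis 179 (49.7%) and 35 (9.72%). On the other side, the 41 genes that rose in dermis and fell in epidermis had 3 (7.32%) and 14 (34.1%), the 266 that rose in dermis with no call in epidermis 34 (12.8%) and 107 (40.2%), and the 135 that fell in epidermis with no call in dermis 17 (12.6%) and 59 (43.7%). Neonatal epidermal arrays also had the higher fibroblast marker sums of the epidermal arrays. Of the markers in that sum, Col1a1, Col1a2, Col3a1 and Fbln1 were themselves called in epidermis and not in dermis. The sum is therefore no separate measure beside that class. Its other members, Lum and Dcn, were not called in epidermis. The part of fibroblast RNA in these classes was not tested. In sorted bulk samples, fewer cells of a type and less RNA per cell cannot be told apart.

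Egfl6, a secreted matrix protein with EGF-like repeats, had the largest interaction among the genes of this class that the naming rule selected. It stood at 10.09, 10.01 and 10.28 in the 3 neonatal dermal arrays and 1.79, 1.81 and 2.61 in telogen dermis, and at 3.85, 4.03 and 4.95 in neonatal and 6.14, 6.13 and 7.02 in telogen epidermis. Neonatal dermis was thus its highest group and telogen dermis, with a weak signal, its lowest, with the epidermal groups in between and in the reverse order. The dermal change was 8.06 ± 0.45 (adjusted p = 2.92e-09), the epidermal change -2.15 ± 0.45 (adjusted p = 0.0052) and the interaction 10.21 ± 0.64 (adjusted p = 7.35e-08). Efnb2, the transmembrane ephrin-B2 ligand of Eph receptors, was at 10.03, 10.09 and 10.25 in neonatal and 7.01, 6.22 and 5.33 in telogen dermis and at 9.68, 9.31 and 9.49 in neonatal and 10.9, 10.79 and 10.85 in telogen epidermis. The dermal arrays spread far more between states than the epidermal arrays, and telogen fibroblasts were the only group that stood low. Its interaction was 5.29 ± 0.46 (adjusted p = 2.97e-06), and the 3 other probe sets of the gene were called in opposite directions as well.

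Fgf18, a fibroblast growth factor made by the resting bulge in mouse skin, was at 7.76, 7.99 and 7.07 in neonatal dermis, 5.26, 5.2 and 5.21 in telogen dermis, 3.74, 3.8 and 4.31 in neonatal epidermis and 8.34, 7.22 and 7.04 in telogen epidermis. Neonatal dermis and telogen epidermis were high and overlapped, and neonatal epidermis was the lowest group. The gene rose in dermis by 2.38 ± 0.42 (adjusted p = 0.000595) and changed in epidermis by -3.58 ± 0.42 (adjusted p = 2.8e-05), an interaction of 5.96 ± 0.59 (adjusted p = 1e-05). Igdcc4, a membrane protein of the immunoglobulin superfamily, was at 10.02, 9.85 and 10.08 in neonatal and 8.71, 8.59 and 8.95 in telogen dermis and at 4.78, 5.47 and 4.55 in neonatal and 8.67, 8.2 and 9.21 in telogen epidermis. Here the epidermal fall was the larger change (-3.77 ± 0.36, adjusted p = 4.01e-06, against 1.23 ± 0.36 in dermis, adjusted p = 0.0273; interaction 5.0 ± 0.52, adjusted p = 1.51e-05), 1 of its 2 other probe sets moved in the same opposite way and the dimmer one was not called.

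Rbp4, the retinol carrier of plasma, averaged 8.47 in neonatal and 4.1 in telogen dermis and 2.67 and 4.68 in epidermis, with an interaction of 6.39 ± 0.62 (adjusted p = 8.03e-06). Its neonatal dermal arrays (8.32, 8.81 and 8.3) lay above all others, and its signal in neonatal epidermis was weak. Nptx1, a secreted neuronal pentraxin, was at 6.24, 6.39 and 6.74 in neonatal dermis and 5.35, 5.61 and 5.04 in telogen epidermis. In the 2 remaining groups it was near the lower end of the arrays, at 3.23, 0.19 and 0.43 in telogen dermis and -0.34, 1.64 and 1.33 in neonatal epidermis, so the size of its interaction (9.63 ± 1.16, adjusted p = 7.11e-05) is imprecise.

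**Figure D3:**
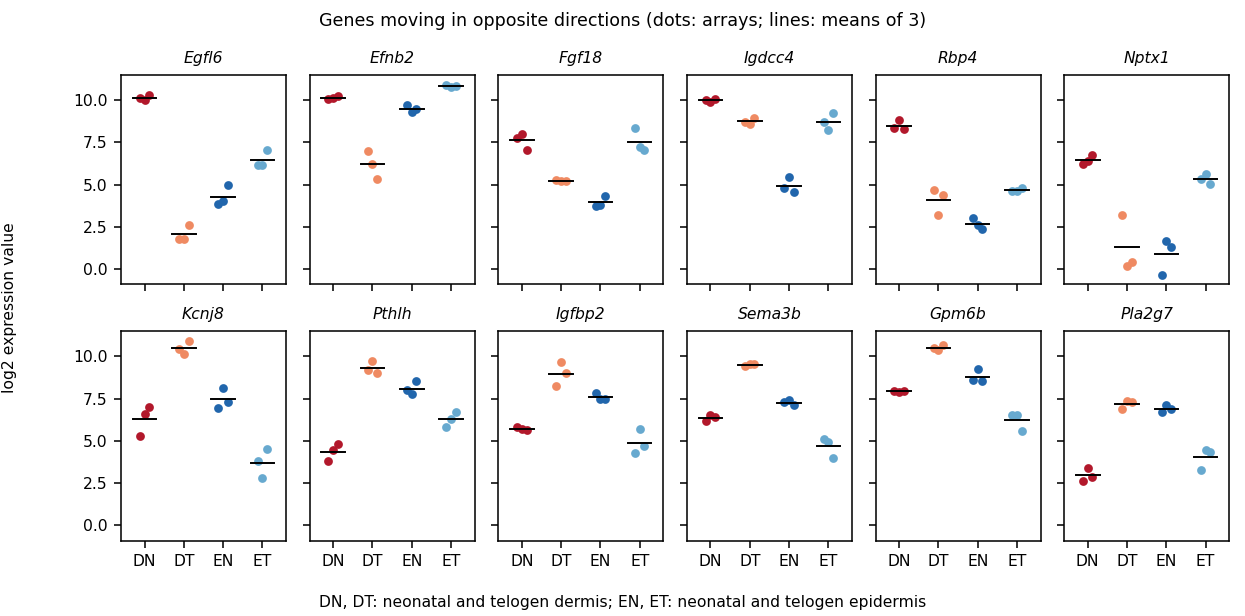
Log2 expression value of the 12 named genes of the opposite class in each wild-type array (dots) with the mean of 3 arrays (lines), for neonatal dermis (DN), telogen dermis (DT), neonatal epidermis (EN) and telogen epidermis (ET). The upper row holds genes that rose in dermis and fell in epidermis (Egfl6 10.13, 2.07, 4.28 and 6.43), the lower row genes that fell in dermis and rose in epidermis (Kcnj8 6.28, 10.5, 7.45 and 3.71).

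On the reverse side stood a potassium channel. Kcnj8, the Kir6.1 pore of ATP-sensitive potassium channels and a gene of pericytes, was at 5.3, 6.56 and 6.98 in neonatal dermis and 10.41, 10.15 and 10.93 in telogen dermis, and at 6.95, 8.1 and 7.29 in neonatal and 3.81, 2.82 and 4.5 in telogen epidermis. Telogen dermis was the highest and telogen epidermis the lowest group. The dermal change was -4.22 ± 0.63 (adjusted p = 0.000121), the epidermal change 3.74 ± 0.63 (adjusted p = 0.00089) and the interaction -7.95 ± 0.89 (adjusted p = 3.45e-05). Abcc9, the regulatory subunit that joins Kir6.1 in these channels, was chosen after its values were seen. It averaged 3.77 in neonatal and 7.55 in telogen dermis and 5.8 and 0.3 in epidermis (dermis -3.79 ± 1.2, adjusted p = 0.0385, epidermis 5.51 ± 1.2, adjusted p = 0.00641). The interaction of Abcc9 was -9.29 ± 1.69 (adjusted p = 0.00262). The pericyte and muscle marker sum was higher in telogen than in neonatal dermis (1620 to 2250 against 815 to 1020). In epidermis it was higher in neonatal than in telogen arrays (1620 to 2430 against 412 to 566). Kcnj8 is a member of that sum and made up most of it in telogen dermis, so the sum is no separate measure beside this gene. No sum without Kcnj8 was made. The part of pericytes in the changes of Kcnj8 and Abcc9 was not tested.

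Pthlh, the parathyroid hormone-related peptide, was at 3.81, 4.44 and 4.84 in neonatal and 9.2, 9.74 and 8.99 in telogen dermis and at 7.98, 7.74 and 8.52 in neonatal and 5.81, 6.31 and 6.68 in telogen epidermis. The gene was thus stronger in epidermis than in dermis of neonatal skin and stronger in dermis in telogen skin, with a dermal change of -4.95 ± 0.4 (adjusted p = 1.31e-07), an epidermal change of 1.81 ± 0.4 (adjusted p = 0.00666) and an interaction of -6.76 ± 0.56 (adjusted p = 2.59e-06). Its second probe set moved in the same opposite way. Igfbp2, a binding protein that holds insulin-like growth factors outside the cell, averaged 5.71 in neonatal and 8.97 in telogen dermis and 7.6 and 4.88 in epidermis. The interaction of Igfbp2 was -5.98 ± 0.6 (adjusted p = 1.19e-05). Sema3b, a secreted semaphorin, averaged 6.35 in neonatal and 9.49 in telogen dermis and 7.27 and 4.67 in epidermis. The interaction of Sema3b was -5.74 ± 0.55 (adjusted p = 7.83e-06).

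Gpm6b, a membrane glycoprotein of the proteolipid family, changed by nearly equal and opposite amounts, -2.58 ± 0.3 in dermis and 2.55 ± 0.3 in epidermis (adjusted p = 1.01e-05 and 3.35e-05), and reached 10.46, 10.37 and 10.67 in telogen dermis. The interaction of Gpm6b was -5.13 ± 0.43 (adjusted p = 2.59e-06). Of its 2 other probe sets 1 was in the opposite class and 1 was called in epidermis and not in dermis. Pla2g7, the enzyme that breaks down platelet-activating factor, had a D2 dermis minus D2 epidermis difference of -2.22. It was at 2.65, 3.38 and 2.84 in neonatal and 6.91, 7.36 and 7.29 in telogen dermis and at 6.73, 7.11 and 6.89 in neonatal and 3.25, 4.49 and 4.35 in telogen epidermis. A lack of overlap between the states in each compartment was a condition for naming the 12 genes of this class by the rule. The interaction of Pla2g7 was -7.11 ± 0.64 (adjusted p = 3.76e-06). All 12 genes of the opposite class named by the rule kept their call for the interaction when any 1 of the 12 arrays was left out and with the mouse as a fixed block. Their calls within each compartment, which the class also needs, were not followed gene by gene in these settings.

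Among genes that rose in neonatal dermis with no call in epidermis, Lgr5, the R-spondin receptor of follicle stem cells, was at 7.34, 7.4 and 7.23 in neonatal and 1.51, 3.97 and 2.19 in telogen dermis, and at 6.14, 6.21 and 6.0 in neonatal and 7.99, 7.11 and 7.56 in telogen epidermis. Telogen dermis, with a weak signal, stood apart from the other 3 groups. The dermal change was 4.77 ± 0.47 (adjusted p = 1.39e-06), the epidermal difference -1.43 ± 0.47 (adjusted p = 0.0621) and the interaction 6.2 ± 0.66 (adjusted p = 2.3e-05). Cd24a, a glycosylphosphatidylinositol-anchored surface glycoprotein, was at 11.23, 10.9 and 10.7 in neonatal and 6.49, 5.87 and 6.41 in telogen dermis and between 10.36 and 10.89 in all 6 epidermal arrays. Its dermal rise of 4.69 ± 0.36 (adjusted p = 7.56e-08) brought neonatal fibroblasts to the level of keratinocytes. The interaction of Cd24a was 4.33 ± 0.51 (adjusted p = 5.3e-05). Nat8l, the enzyme that makes N-acetylaspartate, averaged 8.63 in neonatal and 2.7 in telogen dermis and 4.8 and 5.79 in epidermis. The interaction of Nat8l was 6.92 ± 1.06 (adjusted p = 0.000646).

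Enho, which encodes the peptide adropin, and Col26a1, a collagen chain, are less certain members of this class. Enho averaged 10.16 in neonatal dermis, but its telogen dermal arrays were at -0.02, 7.67 and 6.62, with 1 far below the other 2. The interaction of Enho was 6.66 ± 1.86 (adjusted p = 0.0403). The call of Enho was lost when any 1 array other than the telogen dermal ones was left out (adjusted p = 0.0528 to 0.0842), and its other 2 probe sets differed. The one with a mean of 2.5 was called in the same class (interaction 6.84, adjusted p = 0.000257), and the one with a mean of 4.48 was not called (interaction 0.59, adjusted p = 0.726). Col26a1 was at 9.74, 9.87 and 10.07 in neonatal and 4.16, 4.69 and 3.9 in telogen dermis and weak in epidermis (3.93, 1.25 and 3.7 in neonatal and 2.02, 0.69 and 1.43 in telogen arrays). Its interaction of 4.07 ± 1.06 (adjusted p = 0.0283) was lost when any 1 array other than epidermal neonatal 2 and 4, dermal telogen 3 and epidermal telogen 3 was left out (adjusted p = 0.052 to 0.0771). With the mouse as a fixed block the adjusted p was 0.15 for Enho and 0.109 for Col26a1.

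The genes that fell in dermis with no call in epidermis included peptidases and an antioxidant enzyme. Klk1b27, a kallikrein-related peptidase, was at 11.18, 10.59 and 10.8 in the telogen dermal arrays and at -0.21, 3.45 and 1.21 in neonatal dermis. It was at -0.45, 2.03 and 3.72 in neonatal and 3.37, -0.15 and -0.6 in telogen epidermis, so only telogen fibroblasts carried more than a weak signal. Klk1b24, its close relative, averaged 9.96 in telogen dermis and 1.8 or less in the other 3 groups. The interactions were -10.27 ± 1.69 (adjusted p = 0.00119) and -7.83 ± 1.27 (adjusted p = 0.00107), or adjusted p = 0.0595 and 0.0554 with the mouse as a fixed block. The kallikrein genes of this cluster are near copies of each other, and which of them the probe sets read is uncertain.

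Sod3, the extracellular superoxide dismutase, and Cyp2f2, a cytochrome P450, had the same form. Sod3 was at 10.47, 10.62 and 10.4 in telogen dermis and at 3.27, 0.41 and 2.58 in neonatal dermis. Cyp2f2 was at 10.06, 10.12 and 10.58 and 2.2, 2.92 and -0.06. In epidermis Sod3 averaged 3.21 and 3.02 and Cyp2f2 4.32 and 3.55 in neonatal and telogen arrays, and neither was called there (interaction -8.6 ± 1.56, adjusted p = 0.00262, and -9.33 ± 1.17, adjusted p = 0.0001). Tnfaip2, a gene induced by tumour necrosis factor, did not fall to a weak signal in any of the 4 groups: 4.49, 5.72 and 5.06 in neonatal dermis, 11.6, 10.88 and 11.4 in telogen dermis, and between 5.26 and 7.14 in the epidermal arrays, whose states overlapped. Its dermal change was -6.21 ± 0.44 (adjusted p = 4.03e-08), its epidermal difference 0.69 ± 0.44 (adjusted p = 0.389) and its interaction -6.89 ± 0.63 (adjusted p = 4.21e-06).

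**Figure D4:**
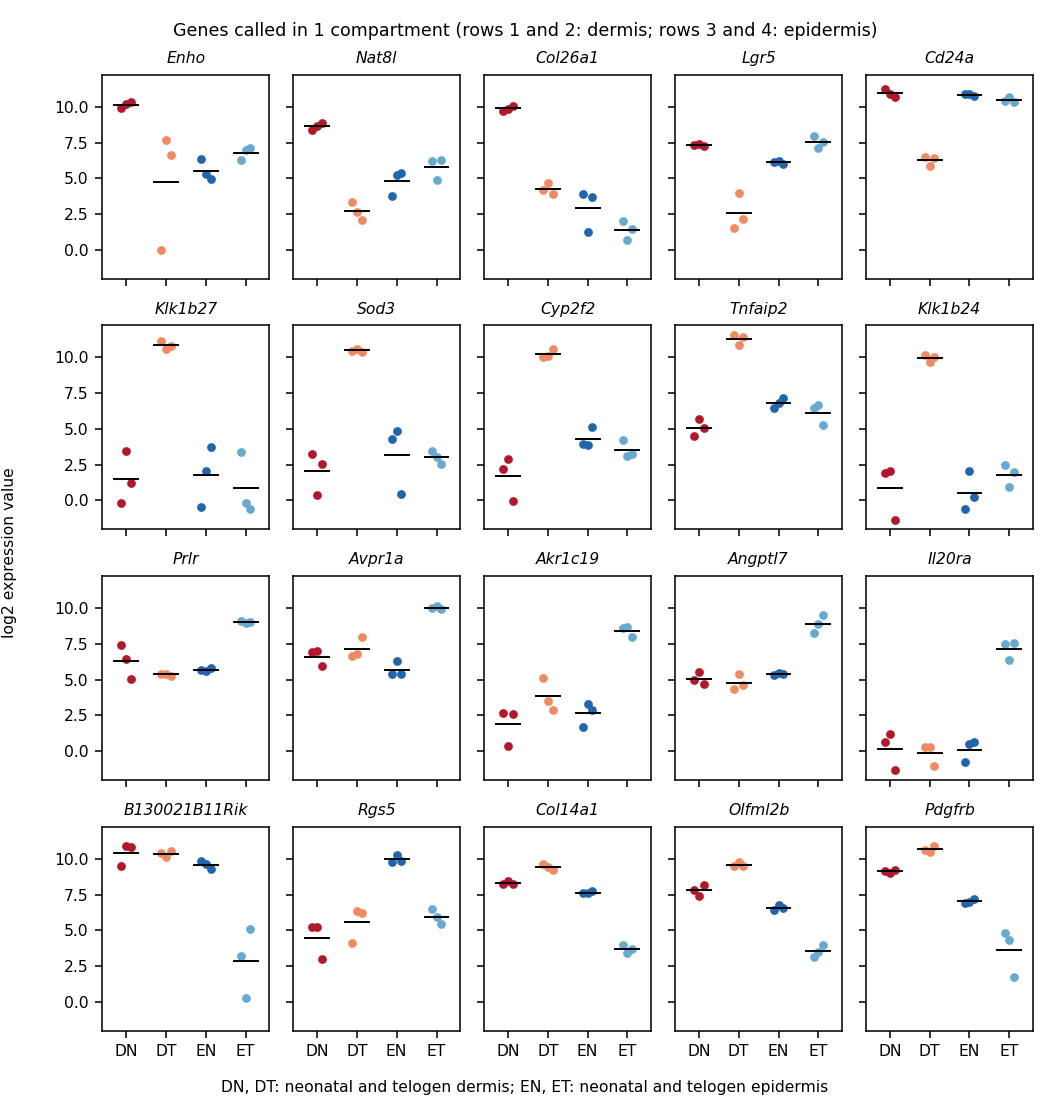
Log2 expression value of 20 named genes called in 1 compartment, in each wild-type array (dots) with the mean of 3 arrays (lines), for neonatal and telogen dermis (DN, DT) and neonatal and telogen epidermis (EN, ET). Rows 1 and 2 hold genes that rose or fell in dermis, where Tnfaip2 goes from 11.29 in telogen to 5.09 in neonatal dermis, and rows 3 and 4 genes that fell or rose in epidermis, where Il20ra goes from 7.14 to 0.11.

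Receptors were among the genes that fell in neonatal epidermis with no call in dermis. Prlr, the prolactin receptor, was at 9.07, 8.96 and 9.03 in telogen epidermis and 5.66, 5.57 and 5.78 in neonatal epidermis, while the dermal states overlapped (7.41, 6.41 and 5.07 in neonatal and 5.42, 5.4 and 5.27 in telogen arrays). Avpr1a, the V1a vasopressin receptor, was at 9.98, 10.17 and 9.96 in telogen and 5.37, 6.33 and 5.42 in neonatal epidermis and between 5.92 and 7.96 in dermis. Il20ra, a chain of the receptors for interleukin-20 cytokines, was at 7.51, 6.35 and 7.57 in telogen epidermis and no higher than 1.23 in any other array. Telogen keratinocytes were the highest group for all 3 genes. The interactions were 4.28 ± 0.78 (adjusted p = 0.00262), 3.82 ± 0.63 (adjusted p = 0.00119) and 7.34 ± 1.25 (adjusted p = 0.00157), and with the mouse as a fixed block the adjusted p-values were 0.0659, 0.0906 and 0.0595. Of 4 other probe sets of Prlr 3 were called in the same class and 1 was not called (interaction 3.18, adjusted p = 0.154).

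Angptl7, a secreted angiopoietin-like protein, was at 8.27, 8.86 and 9.5 in telogen and 5.34, 5.44 and 5.39 in neonatal epidermis and between 4.37 and 5.54 in dermis (epidermis -3.49 ± 0.31, adjusted p = 1.9e-06). The interaction of Angptl7 was 3.75 ± 0.44 (adjusted p = 5.69e-05). Its call for the interaction was kept with the mouse as a fixed block. Akr1c19, an aldo-keto reductase, averaged 1.89 in neonatal and 3.84 in telogen dermis and 2.64 and 8.44 in epidermis. Its interaction of 3.85 ± 1.06 (adjusted p = 0.0374) was lost when any 1 array other than dermal neonatal 2, epidermal neonatal 3 and dermal telogen 2 was left out (adjusted p = 0.0536 to 0.0974), with only the 12 wild-type arrays in the fit (adjusted p = 0.0646) and with the mouse as a fixed block (adjusted p = 0.137).

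The genes that rose in neonatal epidermis with no call in dermis included genes of fibroblasts and pericytes. B130021B11Rik, a mouse gene with no role given here, was at 9.84, 9.65 and 9.3 in neonatal epidermis and 3.2, 0.27 and 5.07 in telogen epidermis, and between 9.47 and 10.89 in all 6 dermal arrays. Telogen keratinocytes were the only low group. The interaction of B130021B11Rik was -6.72 ± 1.18 (adjusted p = 0.00198). Col14a1, a fibril-associated collagen chain, was at 7.58, 7.6 and 7.73 in neonatal and 3.98, 3.39 and 3.7 in telogen epidermis and at 8.26, 8.46 and 8.26 and 9.6, 9.41 and 9.24 in dermis. The interaction of Col14a1 was -5.04 ± 0.64 (adjusted p = 0.00011). Olfml2b, an olfactomedin-like matrix protein, averaged 7.79 in neonatal and 9.59 in telogen dermis and 6.58 and 3.52 in epidermis. The interaction of Olfml2b was -4.87 ± 0.99 (adjusted p = 0.00607, adjusted p = 0.0974 with the mouse as a fixed block).

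Pdgfrb, the beta receptor for platelet-derived growth factor, was at 6.88, 7.0 and 7.16 in neonatal and 4.83, 4.34 and 1.72 in telogen epidermis and averaged 9.14 and 10.65 in dermis. The interaction of Pdgfrb was -4.89 ± 1.01 (adjusted p = 0.00691, adjusted p = 0.0803 with the mouse as a fixed block). Rgs5, a pericyte regulator of G-protein signalling, differed from these genes in being highest in neonatal epidermis, at 9.76, 10.27 and 9.82, against 6.49, 5.93 and 5.41 in telogen epidermis and 2.96 to 6.37 in dermis. Its interaction of -5.11 ± 1.35 (adjusted p = 0.0307) was lost when any 1 array other than dermal neonatal 1 and 2, dermal telogen 2 and epidermal telogen 2 was left out (adjusted p = 0.0518 to 0.0846) and with the mouse as a fixed block (adjusted p = 0.103). Of its 3 other probe sets 2 were called in the same class and 1 had adjusted p = 0.0505. Neonatal epidermal arrays also carried the higher marker sums of fibroblasts (6360 to 8240 against 2050 to 2740 in telogen epidermis), pericytes and muscle (1620 to 2430 against 412 to 566) and Schwann cells (1140 to 1700 against 360 to 663). The part of these cells in the rises was not tested. Rgs5 itself was a large part of the pericyte and muscle sum in neonatal epidermis, so that sum is no separate measure beside it. Lum, a fibroblast marker, did not follow the fibroblast sum: it averaged 4.58 in neonatal and 5.09 in telogen epidermis (-0.5 ± 0.58, adjusted p = 0.672). Col1a1, the main collagen chain of skin, went from 8.43, 7.94 and 7.83 to 10.34, 10.42 and 9.97 (2.17 ± 0.27, adjusted p = 6.76e-05). The interaction of Col1a1 was -2.17 ± 0.39 (adjusted p = 0.0023).

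Some genes moved the same way in both compartments by amounts that differed. Agtr2, the type 2 angiotensin receptor of fetal mesenchyme, rose by 8.25 ± 0.82 in dermis (adjusted p = 1.54e-06) and by 2.9 ± 0.82 in epidermis (adjusted p = 0.0305), and its neonatal dermal arrays at 8.9, 9.24 and 8.95 were the only ones above 3.72. The interaction of Agtr2 was 5.34 ± 1.16 (adjusted p = 0.00962, adjusted p = 0.118 with the mouse as a fixed block). Akr1c18, which inactivates progesterone, fell in both, from 8.31, 7.29 and 5.48 to 1.02, 1.62 and 3.16 in dermis and from 10.99, 11.22 and 11.07 to -1.06, -1.49 and 1.78 in epidermis. The epidermal fall was the larger (interaction 6.25 ± 1.21, adjusted p = 0.0042), although both neonatal groups were near the lower end of the arrays, which limits the sizes. Il31ra, a receptor chain for interleukin-31, averaged 5.29 in neonatal and 7.09 in telogen dermis and 4.32 and 10.01 in epidermis. The interaction of Il31ra was 3.89 ± 0.82 (adjusted p = 0.00767, adjusted p = 0.0747 with the block). BB086117, a transcript with no role given here, averaged 1.48 in neonatal and 3.48 in telogen dermis and 2.97 and 8.53 in epidermis. The interaction of BB086117 was 3.56 ± 0.89 (adjusted p = 0.0221). The call of BB086117 was lost without dermal neonatal 3 (adjusted p = 0.0607), epidermal neonatal 2 (0.0522), epidermal neonatal 3 (0.0663) or dermal telogen 2 (0.0587), and with the block (0.0667).

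C3, the central complement protein, Il1r2, the decoy receptor for interleukin-1, and Pcolce2, which aids the cutting of procollagen, fell in both compartments and much more in dermis. C3 averaged 11.19 in telogen dermis and was at 2.63, 3.96 and 3.38 in neonatal dermis and at 6.11, 6.25 and 6.03 and 4.14, 4.84 and 3.49 in epidermis. The interaction of C3 was -5.9 ± 0.58 (adjusted p = 9.95e-06). Il1r2 changed by -7.05 ± 0.44 in dermis and -1.68 ± 0.44 in epidermis (interaction -5.37 ± 0.62, adjusted p = 5.13e-05), and Pcolce2 by -7.08 ± 0.36 and -2.26 ± 0.36. The interaction of Pcolce2 was -4.82 ± 0.51 (adjusted p = 1.99e-05). In all 3 genes telogen dermis was the highest group, above every epidermal array. Mmp3, the matrix protease stromelysin-1, averaged 4.64 in neonatal and 10.8 in telogen dermis and 2.27 and 4.65 in epidermis. The interaction of Mmp3 was -3.79 ± 0.98 (adjusted p = 0.0266). Its call was lost when any 1 of dermal neonatal 1 and 2, epidermal neonatal 2 and 4, dermal telogen 4 and epidermal telogen 3 and 4 was left out (adjusted p = 0.0509 to 0.0721), with only the 12 wild-type arrays (0.0684) and with the mouse as a fixed block (0.208).

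The 666 named genes called in both compartments the same way, with no call for the interaction, held growth genes on the neonatal side. Tubb5, a beta-tubulin, was at 10.16, 10.15 and 10.41 in neonatal and 8.63, 8.66 and 8.59 in telogen dermis and at 10.37, 10.73 and 10.37 and 8.78, 8.95 and 8.84 in epidermis, changes of 1.61 ± 0.19 and 1.63 ± 0.19. Dnmt1, the maintenance DNA methyltransferase, rose by 1.3 ± 0.23 and 1.46 ± 0.23, Mex3a, an RNA-binding protein, by 1.56 ± 0.25 and 1.43 ± 0.25, and Cenpq, a kinetochore protein, by 1.45 ± 0.31 and 1.47 ± 0.31. On the telogen side Ly6a, the surface protein Sca-1, was at 11.69, 11.51 and 11.62 in dermis and 9.12, 9.61 and 9.61 in epidermis and lower in all neonatal arrays, with changes of -2.79 ± 0.29 and -2.78 ± 0.29. Scd1, a fatty acid desaturase of sebaceous glands, changed by -2.64 ± 0.3 and -2.7 ± 0.3, Abca1, a cholesterol exporter, by -2.65 ± 0.25 and -2.48 ± 0.25, and Nr1d2, a repressor of the circadian clock, by -2.59 ± 0.26 and -2.41 ± 0.26. In all 8 the interval of the interaction lay within 1 log2 unit, which is how they were selected.

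Proliferation genes rose in both compartments, many of them more in dermis. Of 67 named genes of mitosis (71 listed) 66 rose in dermis and 43 in epidermis, and the interaction was called higher for 34 (50.7%, against 11.3% of all named genes), a count of 17 under quantile normalization and of 21 with the arrays centred. Calls the other way numbered 0 in dermis, in epidermis and for the interaction by limma, and 0 at an unadjusted p under 0.05. The median change was 4.01 in dermis and 1.73 in epidermis, against -0.13 and -0.08 over all named genes and 0.18 and -0.01 over all probe sets, and the median interaction of 2.13 was 1.63 under quantile normalization, 1.73 with the arrays centred and 1.11 with an offset of 16. The compartments differed most in telogen, where the median level was 3.23 in dermis and 6.27 in epidermis, against 7.35 and 8.04 in neonatal skin. Of 49 named genes of DNA replication and repair 44 rose in dermis and 24 in epidermis. The interaction was called higher for 9 (18.4%, against 11.3% of all named genes), a count of 3 under quantile normalization and of 2 with the arrays centred (median interaction 1.38).

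Mki67, the proliferation antigen Ki-67, was at 11.03, 11.04 and 10.78 in neonatal and 7.21, 6.2 and 7.04 in telogen dermis and at 11.49, 11.34 and 11.29 and 10.19, 10.13 and 10.05 in epidermis. Telogen dermis was low, and the gap between the epidermal states was the smaller (dermis 4.13 ± 0.3, adjusted p = 4.84e-08, epidermis 1.25 ± 0.3, adjusted p = 0.0129). The interaction of Mki67 was 2.88 ± 0.43 (adjusted p = 0.000539). Cenpf, a kinetochore protein, averaged 8.57 in neonatal and 1.11 in telogen dermis and 9.05 and 7.38 in epidermis. Its epidermal difference was not called (1.66 ± 0.8, adjusted p = 0.22) and its interaction was 5.8 ± 1.13 (adjusted p = 0.00436, 0.0589 with the mouse as a fixed block), while its other probe set was not called (interaction 2.3, adjusted p = 0.419). Ccna2, the S phase and mitotic cyclin A2, rose by 4.5 ± 0.29 and 2.05 ± 0.29. The interaction of Ccna2 was 2.46 ± 0.42 (adjusted p = 0.00149). Uhrf1, which guides DNA methylation to replicated DNA, rose in dermis by 3.47 ± 0.33 (adjusted p = 1e-06) and was not called in epidermis (0.99 ± 0.33, adjusted p = 0.0696, interaction 2.48 ± 0.47, adjusted p = 0.00353). Mcm5, a subunit of the replicative helicase, rose in both (2.74 ± 0.35 and 1.16 ± 0.35). The interaction of Mcm5 was 1.58 ± 0.5 (adjusted p = 0.0719, and 0.0252 with only the 12 wild-type arrays), and its other probe set was called (interaction 4.92, adjusted p = 0.000222).

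Promoters of these genes often hold the cell cycle genes homology region, the element through which the DREAM complex keeps mitotic genes silent in resting cells. The letters TTTGAA or, on the other strand, TTCAAA were found in 38 of the 55 named mitosis genes with a RefSeq promoter of 300 bases (250 before and 50 after the start, GRCm38.p6), or 69.1%, against 4893 of all 27025 promoters (18.1%). The promoters of Cenpf and Mki67 are shown because these were the first 2 called genes, by size of the interaction, that hold a match. Capitals mark the matches, which begin at base 3 relative to the start in Cenpf and at bases -116 and -98 in Mki67.
Cenpf (chr1:189688037-189688336, minus strand): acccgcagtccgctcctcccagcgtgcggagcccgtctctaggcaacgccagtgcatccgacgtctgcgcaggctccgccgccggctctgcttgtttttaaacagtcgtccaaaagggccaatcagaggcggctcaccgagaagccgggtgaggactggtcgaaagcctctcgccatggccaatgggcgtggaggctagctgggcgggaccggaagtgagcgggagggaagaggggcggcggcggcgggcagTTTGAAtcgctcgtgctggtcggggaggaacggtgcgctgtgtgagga
Mki67 (chr7:135716330-135716629, minus strand): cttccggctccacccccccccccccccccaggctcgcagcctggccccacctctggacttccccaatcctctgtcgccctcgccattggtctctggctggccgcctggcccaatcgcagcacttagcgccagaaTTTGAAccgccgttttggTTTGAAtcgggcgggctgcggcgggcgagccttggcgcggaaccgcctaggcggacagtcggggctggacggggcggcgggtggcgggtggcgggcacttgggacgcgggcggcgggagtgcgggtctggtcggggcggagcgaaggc

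Interferon-induced and class I genes were the counterpart, with more falls than rises in both compartments. Of 46 named members (74 listed) 42 fell in dermis and 23 in epidermis, 1 rose in dermis, and the interaction was called lower for 19 (41.3%, against 13.2% of all named genes) and higher for 1. The median change was -3.23 in dermis and -1.17 in epidermis, and the median interaction of -1.6 was -1.27 to -2.0 in the other 3 scalings. Ifi203, a nucleic acid sensor of the HIN-200 family, was at 10.03, 9.23 and 10.37 in telogen dermis and 1.6, 3.64 and 1.53 in neonatal dermis. In epidermis it was at 6.88, 7.22 and 6.69 and 5.87, 5.93 and 6.64, much closer together (-0.78 ± 0.52, adjusted p = 0.412). The interaction of Ifi203 was -6.84 ± 0.74 (adjusted p = 2.71e-05). Ifi204, of the same family, averaged 7.88 in telogen dermis and 2.21 or less in the other groups (interaction -5.96 ± 1.01, adjusted p = 0.00145). The 2 genes are related, and their probe sets may share signal. Xaf1, a pro-apoptotic interferon target, changed by -5.69 ± 0.31 and -1.42 ± 0.31 in dermis and epidermis. The interaction of Xaf1 was -4.28 ± 0.43 (adjusted p = 1.19e-05), while a dimmer probe set was not called (interaction -1.83, adjusted p = 0.163).

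One member went against the others. Ifitm1, a membrane protein that restricts viruses and marks germ cells and early mesoderm, rose in dermis (2.39 ± 0.36, adjusted p = 0.00015) and fell in epidermis (-1.34 ± 0.36, adjusted p = 0.0249), an interaction of 3.72 ± 0.51 (adjusted p = 0.000257). H2-Q7, a class I-like histocompatibility gene, had the larger change in epidermis (-6.58 ± 0.61 against -3.86 ± 0.61 in dermis), with no call for the interaction (adjusted p = 0.0781). Macrophage marker sums moved with the dermal fall (1170 to 1300 in telogen and 166 to 245 in neonatal dermis), as did those of dendritic cells (172 to 248 and 37.5 to 45.9), and in epidermis dendritic sums were 4730 to 5320 in telogen and 1310 to 1820 in neonatal arrays. The part of these cells in the interferon list was not tested.

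The interferon-stimulated response element, to which STAT and IRF factors bind, was searched on both strands as GAAA, any 2 bases and GAAA again. It was found in 14 of 35 named members with a RefSeq promoter (40.0%), against 943 of 27025 promoters (3.49%), and a match to either element is a description of letters, not a site or a cause. Gbp2, an interferon-induced GTPase, and Ifit3, an interferon-induced protein with tetratricopeptide repeats, are shown as the first 2 called members, by size of the interaction, that hold it. Gbp2 averaged 2.09 in neonatal and 8.54 in telogen dermis and 4.82 and 6.65 in epidermis (interaction -4.62 ± 0.8, adjusted p = 0.00176), and Ifit3 5.41 in neonatal and 8.63 in telogen dermis and 5.84 and 6.05 in epidermis. The interaction of Ifit3 was -3.0 ± 0.62 (adjusted p = 0.00693). Capitals mark the matches, which begin at base -59 relative to the start in Gbp2 and at bases -156 and -122 in Ifit3.
Gbp2 (chr3:142620413-142620712, plus strand): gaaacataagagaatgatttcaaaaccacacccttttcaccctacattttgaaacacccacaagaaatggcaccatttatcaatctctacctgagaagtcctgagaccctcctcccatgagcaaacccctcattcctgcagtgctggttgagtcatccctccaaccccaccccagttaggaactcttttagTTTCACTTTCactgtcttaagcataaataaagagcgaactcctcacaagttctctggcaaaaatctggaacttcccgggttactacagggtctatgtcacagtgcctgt
Ifit3 (chr19:34583279-34583578, plus strand): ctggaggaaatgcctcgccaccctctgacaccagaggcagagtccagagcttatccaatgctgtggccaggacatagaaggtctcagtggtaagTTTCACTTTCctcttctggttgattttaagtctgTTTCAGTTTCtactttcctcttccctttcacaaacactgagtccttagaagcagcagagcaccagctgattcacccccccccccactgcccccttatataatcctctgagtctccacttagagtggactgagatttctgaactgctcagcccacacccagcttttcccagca

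More innate immune genes were called lower than higher for the interaction. Of 17 named Toll-like receptor and complement genes 11 fell in dermis and 5 in epidermis, and 5 (29.4%, against 13.2% of all named genes) were called lower for the interaction (median interaction -1.98, and -1.58 to -2.37 in the other scalings), a count of 8 with an offset of 16. Macrophage sums (1170 to 1300 in telogen and 166 to 245 in neonatal dermis) and the dendritic cell sums of both compartments were lower in neonatal arrays too, and their part was not tested. Tlr4, the receptor for bacterial lipopolysaccharide, was at 8.68 in telogen dermis and -1.32 in neonatal dermis, the latter at the lower end of the arrays, and averaged 3.57 and 5.57 in neonatal and telogen epidermis (interaction adjusted p = 0.000539). Tlr3, which senses double-stranded RNA, changed by -3.66 ± 0.29 in dermis and -1.35 ± 0.29 in epidermis. The interaction of Tlr3 was -2.31 ± 0.4 (adjusted p = 0.00193), and its other probe set was not called (interaction -1.04, adjusted p = 0.511). Of 48 named chemokines, cytokines and receptors 30 fell in dermis and 20 in epidermis, with 12 called lower for the interaction (25.0%) and 3 higher (6.25%), or 16 and 7 with an offset of 16 (median interaction -0.37, and -0.33 to -0.76 in the other scalings). Ccl11, the eosinophil chemokine eotaxin, fell in dermis (-5.26 ± 0.63, adjusted p = 1.33e-05) from a mean of 10.15 and was not called in epidermis (-0.16 ± 0.63, adjusted p = 0.92). The interaction of Ccl11 was -5.1 ± 0.9 (adjusted p = 0.00201, 0.0712 with the mouse as a fixed block). Ccl19, a chemokine that draws T cells and dendritic cells, changed by -4.34 ± 0.41 and -1.32 ± 0.41. The interaction of Ccl19 was -3.02 ± 0.58 (adjusted p = 0.00387, 0.0651 with the block).

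More matrix genes rose than fell in epidermis, and they showed no common direction in dermis. Of 67 named collagen and matrix genes (86 listed) 19 rose and 12 fell in dermis, 28 rose and 5 fell in epidermis, and the interaction was called lower for 25 (37.3%) and higher for 8 (11.9%), the latter 4 with arrays centred. The median change was 0.0 in dermis (-0.18 to 0.02 in the other scalings) and 1.01 in epidermis, and the median interaction of -1.03 was -1.04 to -1.43 in the other scalings. In 49 of the 67 D2 dermis was at least 1 log2 unit above D2 epidermis. Vcan, the proteoglycan versican, was at 8.87, 8.82 and 7.71 in neonatal and 5.06, 4.79 and 3.66 in telogen epidermis, while dermis had 10.77, 10.79 and 10.42 and 9.98, 10.16 and 9.99. The interaction of Vcan was -3.34 ± 0.59 (adjusted p = 0.00196). Col1a2 and Col3a1, chains of the fibrillar collagens I and III, differed by 0.02 ± 0.24 and -0.1 ± 0.31 in dermis and rose by 1.36 ± 0.24 and 1.73 ± 0.31 in epidermis (interactions -1.34 ± 0.35, adjusted p = 0.0266, and -1.82 ± 0.43, adjusted p = 0.0174). A second, dimmer probe set of Col3a1 was not called for the interaction (adjusted p = 0.197). Col5a3, a chain of collagen V, fell in dermis (-3.15 ± 0.53, adjusted p = 0.00042) and was not called in epidermis (1.67 ± 0.53, adjusted p = 0.055, interaction -4.82 ± 0.75, adjusted p = 0.000789). Fbn2, a fibrillin of developing tissue, rose in both (4.65 ± 0.43 and 2.79 ± 0.43, interaction adjusted p = 0.0839). The list moved with the fibroblast marker sum of epidermal arrays, whose part was not tested and which contains Col1a1, Col1a2 and Col3a1 themselves.

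Of 46 named matrix enzymes and inhibitors 4 rose and 15 fell in dermis, and 16 rose and 7 fell in epidermis. The interaction was called lower for 11 (23.9%, against 13.2% of all named genes) and higher for 1 (2.17%, against 11.3%). The median change was -0.98 in dermis and 0.51 in epidermis, and the median interaction was -1.37. With an offset of 16 the calls were 22 lower and 5 higher. In 34 of the 46 D2 dermis was at least 1 log2 unit above D2 epidermis, and the epidermal rises moved with the fibroblast marker sum of epidermal arrays (6360 to 8240 in neonatal and 2050 to 2740 in telogen), whose part was not tested. Plau, the plasminogen activator urokinase, moved in opposite directions, from 9.44, 8.83 and 9.02 in telogen to 6.79, 5.78 and 6.42 in neonatal dermis and from 8.27, 7.16 and 7.17 to 8.98, 8.58 and 9.06 in epidermis. The interaction of Plau was -4.11 ± 0.54 (adjusted p = 0.000177). Unlike most of the list it was the stronger in D2 epidermis, by 0.71 log2 units. Timp3, a matrix-bound inhibitor of metalloproteinases, fell in dermis from 11.29, 11.31 and 11.38 to 8.59, 8.64 and 8.65 and averaged 10.34 and 9.84 in neonatal and telogen epidermis (epidermis 0.51 ± 0.2, adjusted p = 0.128). The interaction of Timp3 was -3.21 ± 0.29 (adjusted p = 3.67e-06). Of its 3 other probe sets 2 were in the opposite class and 1 in the same class as the main one.

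Imprinted growth genes more often rose than fell in both compartments. Of 21 named members 10 rose and 1 fell in dermis, and 13 rose in epidermis. For the interaction 6 were called lower (28.6%, against 13.2% of all named genes) and 1 higher (4.76%, against 11.3%), or 6 and 6 with an offset of 16. The median interaction was -1.01, and -0.39 to -1.4 in the other scalings. Their median level in telogen was 6.51 in dermis and 3.69 in epidermis. Ndn, the growth suppressor necdin, was at 10.76, 10.67 and 10.79 in neonatal and 10.71, 10.42 and 10.88 in telogen dermis, and at 7.93, 8.66 and 7.84 and 5.26, 4.54 and 4.36 in epidermis. The interaction of Ndn was -3.35 ± 0.51 (adjusted p = 0.000622), and of its 4 other probe sets 2 were called in the same class and 2 were not called (interactions -2.17 and -3.66, adjusted p = 0.457 and 0.0707). Rian, a long noncoding RNA of the Dlk1-Dio3 region, rose in epidermis by 4.48 ± 0.63 (adjusted p = 0.000179) and differed by 0.46 ± 0.63 in dermis. The interaction of Rian was -4.02 ± 0.89 (adjusted p = 0.0108, 0.139 with the mouse as a fixed block), and of its 3 other probe sets 1 was called in the same class and 2 were not called (interactions -3.21 and -1.21, adjusted p = 0.232 and 0.541). Zim1, an imprinted zinc finger gene, rose in dermis (4.75 ± 0.58, adjusted p = 1.58e-05) and was not called in epidermis (0.66 ± 0.58). The interaction of Zim1 was 4.09 ± 0.82 (adjusted p = 0.00567). Dlk1, the delta-like growth regulator of the same region, rose in dermis by 7.51 ± 1.04, with no call for the interaction (adjusted p = 0.066). As with the matrix genes, 12 of the 21 were at least 1 log2 unit higher in D2 dermis, and the part of the fibroblast transcripts in the epidermal rises was not tested.

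Of 37 named genes of fetal mesenchyme 22 rose in dermis and 24 in epidermis, and 3 fell in each. For the interaction 8 were called lower (21.6%, against 13.2% of all named genes) and 4 higher (10.8%, against 11.3%), and its median was -0.1. With arrays centred on their median 10 were called lower and 2 higher (median -0.5), and with an offset of 16 there were 8 each way (median 0.3). In 16 of the 37 D2 dermis was at least 1 log2 unit above D2 epidermis, and the fibroblast marker sum of epidermal arrays (6360 to 8240 in neonatal and 2050 to 2740 in telogen) moved with the epidermal rises. Its part in them was not tested. Fndc1, a fibronectin type III protein, moved in opposite directions (-1.97 ± 0.41 in dermis, 2.39 ± 0.41 in epidermis). The interaction of Fndc1 was -4.36 ± 0.58 (adjusted p = 0.00017). Pamr1, a secreted peptidase-like protein, fell in dermis (-5.23 ± 0.71, adjusted p = 4.34e-05) and was not called in epidermis (0.58 ± 0.71). The interaction of Pamr1 was -5.81 ± 1.0 (adjusted p = 0.00166, 0.0535 with the mouse as a fixed block).

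Wnt antagonists moved both ways in neonatal dermis. Several rose, while Sfrp1 (called in dermis and not in epidermis) and Apcdd1 (called in opposite directions) fell there. Of 51 named genes of the Wnt pathway 18 rose and 7 fell in dermis, 10 rose and 4 fell in epidermis, and 11 were called higher (21.6%) and 4 lower (7.84%) for the interaction, a balance that turned to 5 and 7 with arrays centred on their median and 9 and 13 with an offset of 16. Dkk1, which blocks the Wnt co-receptor, was at 7.11, 7.18 and 7.22 in neonatal and 1.93, 2.44 and 1.9 in telogen dermis and between 1.53 and 3.24 in epidermis, so neonatal fibroblasts were the only group with more than a weak signal. The interaction of Dkk1 was 4.19 ± 0.74 (adjusted p = 0.0021), and a dimmer probe set was not called (interaction 5.68, adjusted p = 0.113). Dkk3, a divergent member of the same family, moved in opposite directions (1.74 ± 0.35 and -1.51 ± 0.35). The interaction of Dkk3 was 3.25 ± 0.5 (adjusted p = 0.000686). Sfrp2, a secreted Wnt-binding protein, rose in both (5.21 ± 0.82 and 2.81 ± 0.82), with no call for the interaction (adjusted p = 0.27).

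In the Hedgehog pathway, in which keratinocytes make the ligand and fibroblasts respond, 7 of 15 named genes rose and 1 fell in dermis. In epidermis 5 rose and 1 fell. For the interaction 3 were called higher (20.0%, against 11.3% of all named genes) and 1 lower (6.67%, against 13.2%). The ligand Shh was at 7.01, 7.27 and 6.6 in neonatal and 1.54, 1.78 and 3.71 in telogen epidermis (4.62 ± 0.91, adjusted p = 0.00315) and weak in dermis, where it was not called (interaction adjusted p = 0.438). Hhip, a target gene whose product binds the ligand, was at 9.12, 8.94 and 8.51 in neonatal dermis, 4.15, 3.78 and 4.66 in telogen dermis and between 3.39 and 4.3 in epidermis, where the states overlapped (dermis 4.66 ± 0.47, adjusted p = 1.82e-06, epidermis 0.17 ± 0.47, adjusted p = 0.883). The interaction of Hhip was 4.49 ± 0.67 (adjusted p = 0.000526), and of its 3 other probe sets 1 was called in the same class and 2 were not called (interactions 4.21 and 4.6, adjusted p = 0.0642 and 0.0647). Boc, a co-receptor, fell in epidermis (-1.83 ± 0.27, adjusted p = 0.000267) and was not called in dermis (0.27 ± 0.27). The interaction of Boc was 2.11 ± 0.38 (adjusted p = 0.00245, 0.0701 with the mouse as a fixed block).

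Of 34 named BMP, TGF-beta and Notch genes 7 were called higher (20.6%) and 8 lower (23.5%) for the interaction, against 11.3% and 13.2% of all named genes. The median interaction of 0.06 changed sign with arrays centred on their median (-0.33). Tgfb2, transforming growth factor beta 2, moved in opposite directions: it was at 10.02, 9.85 and 9.06 in telogen and 6.07, 6.72 and 6.27 in neonatal dermis, and at 6.45, 7.01 and 6.91 and 8.68, 8.39 and 7.98 in epidermis. The interaction of Tgfb2 was -4.85 ± 0.44 (adjusted p = 4.2e-06). Telogen dermis and neonatal epidermis were its high groups, without overlap with the others, and 2 of its 3 other probe sets were in the same class. Ltbp2, a latent TGF-beta binding protein, fell in epidermis, from 7.92, 7.45 and 7.7 to 4.08, 3.6 and 4.23, and lay between 7.65 and 8.27 in dermis. The interaction of Ltbp2 was 4.15 ± 0.39 (adjusted p = 6.33e-06). Grem1, the BMP antagonist gremlin, fell in both and more in epidermis, from 8.99, 9.33 and 9.76 to 2.56, 3.37 and 3.21 (-6.31 ± 0.54 against -1.81 ± 0.54 in dermis). The interaction of Grem1 was 4.51 ± 0.77 (adjusted p = 0.00151).

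Stem cell and niche genes were more often called higher than lower for the interaction, a balance that rested in part on the scaling. Of 34 named genes of the follicle stem cell and bulge 11 rose and 7 fell in dermis, 4 rose and 9 fell in epidermis, and 13 were called higher (38.2%) and 6 lower (17.6%) for the interaction. With arrays centred on their median 8 were called higher and 6 lower. Their median interaction of 1.17 was 0.78 to 1.15 in the other scalings. Fgf18, Lgr5, Angptl7 and Tgfb2, described above, are members. Of 30 named dermal papilla genes 17 rose and 1 fell in dermis, 9 rose and 3 fell in epidermis, and 8 were called higher (26.7%) and 4 lower (13.3%) for the interaction (3 and 5 with arrays centred on their median), with median changes of 1.69 and 0.57. Sox18, a transcription factor of endothelium and of the papilla, rose in dermis (3.47 ± 0.66, adjusted p = 0.0013) and was not called in epidermis (-1.11 ± 0.66). The interaction of Sox18 was 4.57 ± 0.94 (adjusted p = 0.00639, 0.125 with the mouse as a fixed block). Corin, a papilla protease, rose in dermis by 3.43 ± 1.04 (adjusted p = 0.0312), with no call for the interaction (adjusted p = 0.608). The summed signal of 2 of 8 listed endothelial markers, Kdr and Tek, was 373 to 533 in telogen and 34.7 to 55.3 in neonatal dermis. The part of endothelial and papilla cells in the change of Sox18 was not tested.

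Guidance molecules divided between the classes. Of 35 named semaphorins, ephrins and other guidance genes 10 rose and 7 fell in dermis, 12 rose and 1 fell in epidermis, and 7 were called higher (20.0%) and 9 lower (25.7%) for the interaction, 4 of them in opposite directions. Besides Efnb2 and Sema3b, Sema3a, a secreted semaphorin that repels axons, fell in dermis (-1.33 ± 0.38, adjusted p = 0.0217) and rose in epidermis (2.86 ± 0.38, adjusted p = 9.66e-05). The interaction of Sema3a was -4.2 ± 0.53 (adjusted p = 0.000116). Ntn4, a basement membrane netrin, fell in dermis (-4.09 ± 0.54, adjusted p = 3.61e-05) and was not called in epidermis (-0.44 ± 0.54). The interaction of Ntn4 was -3.65 ± 0.77 (adjusted p = 0.00769). Of 52 named junction and adhesion genes 7 were called higher (13.5%) and 10 lower (19.2%), or 4 and 10 with arrays centred and 11 and 14 with an offset of 16. Among them was Itgb5, an integrin subunit that binds vitronectin, in opposite directions (-1.64 ± 0.24 and 1.08 ± 0.24). The interaction of Itgb5 was -2.72 ± 0.34 (adjusted p = 0.0001). Of 52 named growth factors and receptors 8 rose and 16 fell in dermis, 14 rose and 10 fell in epidermis, and 6 were called higher (11.5%) and 16 lower (30.8%) for the interaction (11 and 24 with an offset of 16). Over all named genes 11.3% were called higher and 13.2% lower, and 28.9% fell in dermis and 19.5% in epidermis. The median interaction of this list was -1.14. Igfbp6, which binds insulin-like growth factor 2, fell in dermis from a mean of 9.68 to 2.01 and was not called in epidermis (-1.94 ± 0.68). The interaction of Igfbp6 was -5.73 ± 0.97 (adjusted p = 0.00143, 0.0705 with the mouse as a fixed block).

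Enzymes of xenobiotic metabolism more often fell than rose in both compartments. Of 52 named xenobiotic, steroid and retinoid enzymes 32 fell and 5 rose in dermis, 26 fell and 1 rose in epidermis, and 11 were called lower (21.2%) and 7 higher (13.5%) for the interaction (16 and 3 with arrays centred, 19 and 9 with an offset of 16). The median change was -1.82 in dermis and -1.37 in epidermis. Gpx3, the secreted glutathione peroxidase, was at 11.25, 11.05 and 11.28 in telogen and 5.79, 5.14 and 5.28 in neonatal dermis, and averaged 5.51 and 5.8 in neonatal and telogen epidermis. The interaction of Gpx3 was -5.5 ± 0.76 (adjusted p = 0.000257). Ces2g, a carboxylesterase, fell in dermis (-5.73 ± 0.45, adjusted p = 1.04e-07) and was not called in epidermis (1.18 ± 0.45, adjusted p = 0.114, interaction -6.91 ± 0.64, adjusted p = 5.11e-06). Its relative Ces1d fell in both (-5.39 ± 0.66 and -6.77 ± 0.66, interaction 1.38, adjusted p = 0.464). A dimmer probe set of Ces1d, with changes of -2.25 and -5.95, was called (interaction 3.7, adjusted p = 0.00362), and another was not (interaction -0.9, adjusted p = 0.672). Of 31 named adipocyte and lipid genes 9 rose and 8 fell in dermis, and 1 rose and 10 fell in epidermis. For the interaction 7 were called higher (22.6%, against 11.3% of all named genes) and 3 lower (9.68%, against 13.2%), or 1 and 3 with arrays centred on their median. Plin4, a lipid droplet protein, fell in dermis from a mean of 7.02 to a signal at the lower end of the arrays (adjusted p = 1.08e-05, interaction adjusted p = 0.0032).

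Of 29 named immediate early and heat shock genes 13 fell in each compartment, where 28.9% (dermis) and 19.5% (epidermis) of all named genes fell. For the interaction 3 were called higher (10.3%) and 4 lower (13.8%), near the 11.3% and 13.2% of all named genes. With arrays centred on their median the counts were 0 and 5. Mt1, a metallothionein, fell in dermis (-4.13 ± 0.4, adjusted p = 1.02e-06) and differed by 0.17 ± 0.4 in epidermis. The interaction of Mt1 was -4.3 ± 0.56 (adjusted p = 0.000153), although its other probe set was not called (interaction -1.28, adjusted p = 0.548). Of 61 named homeobox and developmental transcription factors 4 were called higher (6.56%) and 7 lower (11.5%), or 3 and 12 with arrays centred and 9 and 13 with an offset of 16. Of 30 named keratins and epidermal differentiation genes 7 rose and 7 fell in epidermis. Only 1 was called for the interaction, lower (3.33%, against 13.2% of all named genes), while 6 were higher and 5 lower with an offset of 16. The called gene was Ppl, the cornified envelope protein periplakin. Ppl fell in dermis from 7.23 to 3.02 and averaged 8.02 and 8.61 in neonatal and telogen epidermis. The interaction of Ppl was -3.62 ± 0.54 (adjusted p = 0.000547). Of 12 named hair shaft and root sheath genes 4 rose in each compartment, among them Krt25 and Krt73, keratins of the inner root sheath. Krt25 rose by 6.09 ± 0.94 in epidermis and 3.01 ± 0.94 in dermis and Krt73 by 6.49 ± 0.76 and 5.37 ± 0.76, with no call for the interaction (adjusted p = 0.213 and 0.634). These keratins are made by follicle epithelium, and their signal in neonatal dermal arrays (7.04, 4.95 and 5.48 for Krt25) is given as measured.

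Of 49 named leukocyte surface genes 12 fell in dermis and 10 in epidermis, where 28.9% and 19.5% of all named genes fell. For the interaction 2 were called lower (4.08%, against 13.2% of all named genes) and 1 higher (2.04%, against 11.3%). With an offset of 16 the calls were 2 lower and 9 higher. The list thus had fewer calls for the interaction than named genes at large, and the genes below are single members. Their median level was 2.08 in neonatal dermis, a weak signal. Csf1r, the receptor for macrophage colony-stimulating factor, was at 9.44, 9.35 and 9.29 in telogen and 5.23, 3.51 and 3.35 in neonatal dermis, and at 9.13, 9.34 and 9.23 and 7.57, 8.74 and 7.78 in neonatal and telogen epidermis (dermis -5.33 ± 0.67, adjusted p = 2.09e-05). The interaction of Csf1r was -6.53 ± 0.95 (adjusted p = 0.000439). Laptm5, a lysosomal protein of blood cells, likewise fell in dermis (-3.4 ± 0.43, adjusted p = 2.27e-05) and differed by 0.58 ± 0.43 in epidermis (interaction -3.98 ± 0.61, adjusted p = 0.000675), although another probe set of the gene was not called (interaction 0.61, adjusted p = 0.763). Cd209a, a lectin of dendritic cells, had the reverse form: it was at 7.32, 7.13 and 7.56 in telogen epidermis and at 3.41 or below in every other array. The interaction of Cd209a was 6.41 ± 1.55 (adjusted p = 0.0188). Its call was lost without dermal neonatal 1 (adjusted p = 0.0514) or dermal telogen 4 (0.0524) and with the mouse as a fixed block (0.147).

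**Figure D5:**
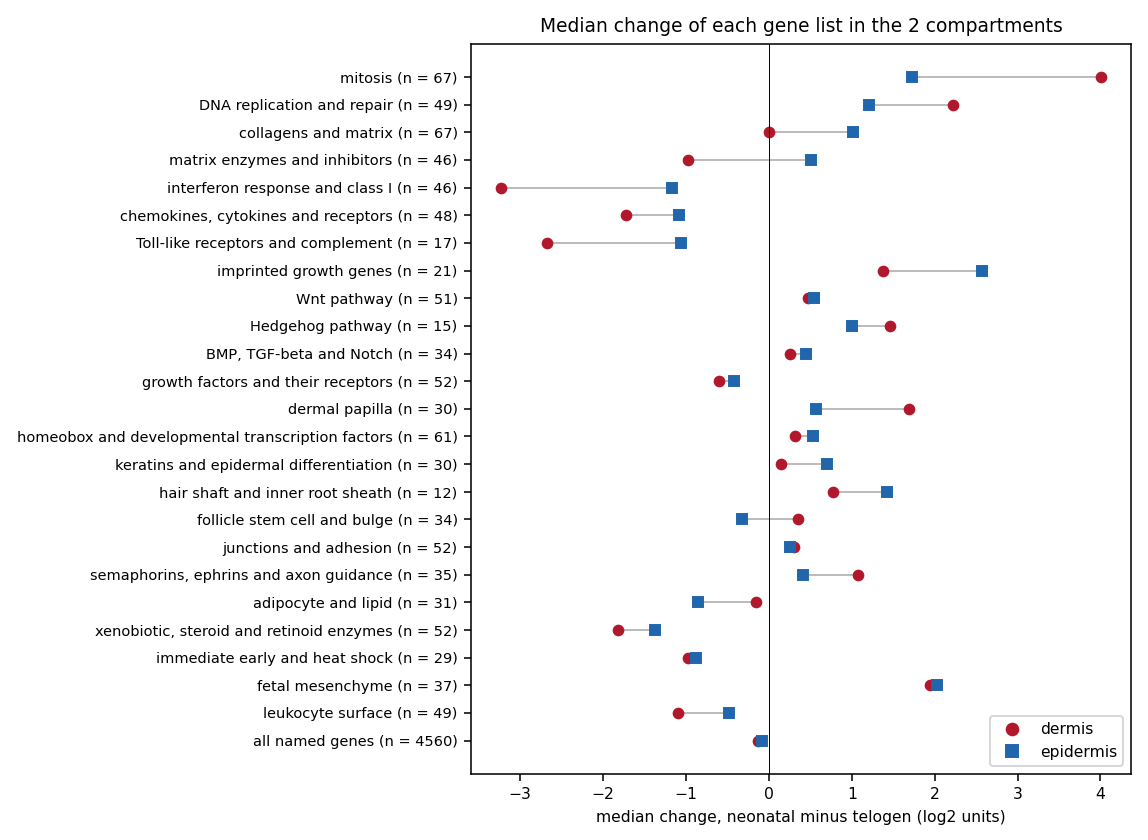
Median change (neonatal minus telogen, log2 units) of the named members of each gene list in dermis (circles) and epidermis (squares), with the number of named members in brackets and all named genes in the last line. Mitosis genes have the widest gap with both medians above 0 (4.01 and 1.73), interferon genes with both below 0 (-3.23 and -1.17), and matrix enzymes lie on opposite sides of 0 (-0.98 and 0.51).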

How the data were processed

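Messenger RNA of 24 samples of sorted mouse skin cells was measured on one-colour arrays with 45101 probe sets. The deposited values are log2 expression values, per the submitters' processing notes made with tools that include RMA and MAS5, whose versions and roles are not given in the sources used here. Each array has the same mean linear signal once the 2% highest and lowest values are set aside. The authors' tables of regulated genes, which per the file headers hold a fold ratio per probe set, were used only for names: of 7285 probe sets listed, 6480 had 1 gene, 267 several and 538 none, 6222 were matched by Entrez ID to RefSeq, 258 kept the file's name, and 4560 genes resulted. An unlisted probe set was tested but has no name here.

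After 64 control probe sets were left out, 45037 were fitted with limma 3.58.1 (R 4.3.3), with 1 mean for each group of the 24 arrays, and p-values were adjusted by Benjamini-Hochberg over all of them, with a threshold of 0.05. Arrays are labelled as biological replicates from numbered mice, and their number limits the precision. Detection calls were not used. A class needed a call for the interaction and the calls in each compartment that its name states. Each gene was read from its probe set with the highest mean over the 12 wild-type arrays. Genes were named by rank of the absolute interaction of log2(signal + 16): in each class and direction the first 6 (opposite), 5 (1 compartment) or 4 (same way) whose states did not overlap in each called compartment, up to 4 called and 2 uncalled members of each list, the cell type markers, and 4 genes in each direction shared by the compartments. Some genes that this rule selects are not reported here. The members and lists were chosen with earlier results of these data known. Dermal and epidermal arrays of the same state and mouse number were taken as 1 mouse, as the labels number the mice. Their deviations from the group means correlated at -0.02 to 0.03 over 5 pairs, and arrays of different states with the same number at -0.05 to 0.02. The fit was tested on simulated data. Promoters came from RefSeq (GRCm38.p6). Python 3.11.15 with numpy 2.4.6, pandas 2.3.3 and matplotlib 3.10.9 made the summaries and plots. Alternatives were quantile normalization, centring each array on its median, an offset of 16 before log2, leaving out probe sets with no group mean over 6, only the wild-type arrays, the mouse as a random or fixed block, trended and robust variances, array weights, a minimum difference of 1 log2 unit and leaving out each array.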

Additional observations from a re-analysis of the deposited data

Results flagged for a closer look

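The dermal and epidermal changes differed by the test of the difference itself (limma, Benjamini-Hochberg over all probe sets) for 2555 probe sets. The genes described above that it called follow with that difference, the dermal minus the epidermal change in log2 units, each from 3 arrays per group. Called in opposite directions, with the dermal change higher, were genes whose difference was 10.21 for Egfl6, 5.29 for Efnb2, 5.96 for Fgf18, 5.0 for Igdcc4, 6.39 for Rbp4, 9.63 for Nptx1 and 3.72 for Ifitm1. It was 3.25 for Dkk3. Called in opposite directions, with the dermal change lower, were genes whose difference was -7.95 for Kcnj8, -6.76 for Pthlh, -5.98 for Igfbp2, -5.74 for Sema3b, -5.13 for Gpm6b, -7.11 for Pla2g7 and -9.29 for Abcc9. It was -4.11 for Plau, -4.36 for Fndc1, -4.85 for Tgfb2, -4.2 for Sema3a and -2.72 for Itgb5. Called in dermis and not in epidermis, with the dermal change higher, were genes whose difference was 6.66 for Enho, 6.92 for Nat8l, 4.07 for Col26a1, 6.2 for Lgr5, 4.33 for Cd24a, 5.8 for Cenpf and 2.48 for Uhrf1. It was 4.09 for Zim1, 4.19 for Dkk1, 4.49 for Hhip and 4.57 for Sox18. Called in dermis and not in epidermis, with the dermal change lower, were genes whose difference was -10.27 for Klk1b27, -8.6 for Sod3, -9.33 for Cyp2f2, -6.89 for Tnfaip2, -7.83 for Klk1b24, -3.0 for Ifit3 and -6.84 for Ifi203. It was -5.96 for Ifi204, -5.1 for Ccl11, -8.0 for Tlr4, -4.82 for Col5a3, -3.21 for Timp3, -5.81 for Pamr1 and -3.65 for Ntn4. It was -5.73 for Igfbp6, -6.22 for Plin4, -5.5 for Gpx3, -6.91 for Ces2g, -4.3 for Mt1, -6.53 for Csf1r and -3.98 for Laptm5. It was -3.62 for Ppl. Called in epidermis and not in dermis, with the dermal change higher, were genes whose difference was 4.28 for Prlr, 3.82 for Avpr1a, 3.85 for Akr1c19, 3.75 for Angptl7, 7.34 for Il20ra, 2.11 for Boc and 4.15 for Ltbp2. It was 6.41 for Cd209a. Called in epidermis and not in dermis, with the dermal change lower, were genes whose difference was -6.72 for B130021B11Rik, -5.11 for Rgs5, -5.04 for Col14a1, -4.87 for Olfml2b, -4.89 for Pdgfrb, -2.17 for Col1a1 and -1.34 for Col1a2. It was -1.82 for Col3a1, -3.34 for Vcan, -3.35 for Ndn and -4.02 for Rian. Called in both compartments the same way, with the dermal change higher, were genes whose difference was 5.34 for Agtr2, 6.25 for Akr1c18, 3.56 for BB086117, 3.89 for Il31ra, 2.88 for Mki67, 2.46 for Ccna2 and 4.51 for Grem1. Called in both compartments the same way, with the dermal change lower, were genes whose difference was -5.9 for C3, -3.79 for Mmp3, -4.82 for Pcolce2, -5.37 for Il1r2, -4.62 for Gbp2, -4.28 for Xaf1 and -3.02 for Ccl19. It was -2.31 for Tlr3.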

How the results depend on the processing

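The count of probe sets called for the interaction was 2555 as reported, 3921 with an offset of 16 before log2, 709 with the mouse as a fixed replicate block and 539 when a difference of at least 1 log2 unit was required. Leaving out 1 array gave 1847 to 2699. For opposite directions (206), 338 were found without dim probe sets, 314 with the offset and 8 with the minimum difference, and 129 to 207 without 1 array. For dermis and not epidermis (1353) the minimum difference gave 312, and 989 to 1486 were found without 1 array. For epidermis and not dermis (678) the offset gave 1203 and the minimum difference 98, and 425 to 675 were found without 1 array. The fixed block leaves fewer arrays in the contrast (5 mouse numbers with both sorts), and for the other shifts the cause was not tested. No class count could be made with the fixed block, in which the changes within 1 compartment cannot be told apart from the mouse. The remaining settings gave counts within 1.5 times the main ones, and for none of the 40 genes named by class did the interaction change direction in any setting run. Of these 40 genes 37 kept the call for the interaction after quantile normalization, 38 with centring on the median, 37 with the 12 wild-type arrays, 31 with the minimum difference and 25 with the fixed block. Without the epidermal array of D2 transient activation replicate 4, which stood apart and shares only in the spread (chosen after seeing the data), 2916 were called. Weak signals near the lower end of the arrays limit the sizes given for genes absent from 1 group.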
